A study of Mus musculus with 28 samples.

Results

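The cytosolic ribosomal protein genes encode the proteins of the ribosome of the cytoplasm. They were taken from the expression table by gene symbol: every symbol made of Rpl or Rps and a number, with or without a final a, x, l or y, together with Rplp0, Rplp1, Rplp2 and Rpsa. The rule found 83 of 55450 genes, of which 51 belong to the large subunit and 32 to the small subunit. The genes lie on 19 chromosomes, 14 of them on chromosome 7.

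RNA was sequenced from C10 cells, a HAFTL-derived mouse Pre-B cell line with a CEBPalpha-ER transgene, a fusion of the myeloid transcription factor C/EBPα with the estrogen receptor. Every group carried the transgene, the 0h cells included. Differentiation towards macrophages was started with 100 nM β-estradiol, 10 nM IL-3 and CSF-1, and 3 libraries each were made at 0h, 1h, 12h and 48h, 12 in all. The same time points were assayed by promoter capture Hi-C (PCHi-C), which lists the fragments that contact gene promoters in the nucleus. The libraries come from 1 cell line, and their labels number them as biological replicates without saying that they were separate cultures, so p-values measure the spread between these libraries, which may be technical.

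A ribosome is built from a small subunit, which decodes the mRNA, and a large subunit, which forms the peptide bonds, and each holds ribosomal RNA and one copy of most of its proteins. Ribosomal protein mRNAs are among the most abundant in growing cells, and they carry a tract of pyrimidines (C or T) at the 5′ end, the TOP motif, through which mTOR and LARP1 control their translation. Ribosome production is high in proliferating cells such as Pre-B cells and is known to follow growth signals and MYC.

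Expression values were TPM, the number of transcripts of a gene in a fixed total, which divide by transcript length and can be compared between genes. A single ribosomal RNA locus held 70.3 to 82.9% of the TPM of a library, so the TPM of every other gene also moves with that locus. Values are therefore given both as TPM and as scaled TPM, in which each library was divided by the median ratio of its genes to their geometric mean over all libraries (median-of-ratios scaling). The summed TPM of the Pre-B markers went from 321.6 ± 19.7 at 0h to 35.7 ± 6.0 at 48h (SD, n = 3), and that of the macrophage markers from 4.58 ± 0.811 to 239.5 ± 40.5. At 48h, 9 of 10 Pre-B markers were lower and 8 of 9 tested macrophage markers higher on scaled TPM. Among the macrophage markers, Adgre1, which encodes F4/80, had a mean of only 0.0967 TPM at 48h. These markers move with time as the ribosomal protein genes do, and their part in the results was not tested. In bulk libraries, fewer cells of a type and less RNA per cell cannot be told apart.

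Of the 83 genes, 77 had a mean of at least 1 TPM over the 12 libraries, and these same 77 passed the filter of 0.1 TPM for testing. They comprise 46 genes of the large and 31 of the small subunit. The other 6 were at or near 0. Rpl10l, Rpl39l and Rps4l were listed at 0 in all 12 libraries. Rpl3l, the muscle paralog of Rpl3, was listed at 0.07 TPM in 12h replicate 1 and at 0 elsewhere. Rpl6l was above 0 in 3 libraries, at 0.29, 0.47 and 0.37 TPM in 12h replicate 1 and 48h replicates 1 and 3, and Rpl32l in 3 libraries, at 0.39, 0.41 and 0.27 TPM in 0h replicate 2, 1h replicate 2 and 12h replicate 1. Rpl6l, Rpl32l and Rps4l are annotated as processed pseudogenes, and the other 80 genes as protein coding.

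Levels at 0h ranged from a mean of 9.73 TPM for Rps2 to 481 TPM for Rpl41, with 59 of the 77 above 100 TPM and 4 below 20 TPM. By mean TPM over all libraries, Rpl41, Rps24, Rpsa and Rplp0 were among the most abundant. Rpl41 encodes the smallest protein of the large subunit, and Rplp0 the base of its stalk. Rpsa encodes a small-subunit protein also known as the laminin receptor. At 48h the means ranged from 1.20 TPM for Rpl12 to 245 TPM for Rps24, and 9 genes were above 100 TPM. Rps24 ranked 6 by mean TPM at 0h and 1 at 48h, whereas Rpsa ranked 3 and 15.

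The start sites of the 8 most abundant genes with an entry in the RefSeq promoter table (GRCm38.p6) are printed to show which of them have a run of C or T near the annotated start. Each sequence reads 5′ to 3′ on the gene's strand, from 30 bases before the annotated start to 20 bases after it, and the capitals mark the longest run of C or T that overlaps the 40 bases around the start.
Rpl41 (chr10:128549149-128549198, minus strand): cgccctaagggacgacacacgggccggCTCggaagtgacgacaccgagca
Rps24 (chr14:24490648-24490697, plus strand): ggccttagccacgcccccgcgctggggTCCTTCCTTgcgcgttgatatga
Rpsa (chr9:120127736-120127785, plus strand): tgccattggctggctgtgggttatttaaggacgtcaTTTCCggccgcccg
Rplp0 (chr5:115559437-115559486, plus strand): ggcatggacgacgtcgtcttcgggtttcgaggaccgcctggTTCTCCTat
Rps15 (chr10:80292401-80292450, plus strand): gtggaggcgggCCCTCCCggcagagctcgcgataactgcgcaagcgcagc
Rpl13a (chr7:45128726-45128775, minus strand): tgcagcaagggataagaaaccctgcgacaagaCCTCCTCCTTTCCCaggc
Rpl26 (chr11:68901536-68901585, plus strand): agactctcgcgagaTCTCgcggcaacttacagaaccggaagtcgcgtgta
Rpl4 (chr9:64173357-64173406, plus strand): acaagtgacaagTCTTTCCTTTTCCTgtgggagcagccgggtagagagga

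The run was 14 bases long in Rpl13a and Rpl4, 9 in Rps24, 7 in Rplp0 and Rps15, 5 in Rpsa, 4 in Rpl26 and 3 in Rpl41. The annotated start can lie a few bases from the base at which transcription begins, so runs beside the start are marked as well. The marked runs of Rps15, Rpl26 and Rpl4 begin 19, 16 and 18 bases before the annotated start. The starts of the paralogs Rpl10 and Rpl10l, and of Rpl39 and Rpl39l, are printed in the same way, since one of each pair was abundant and the other listed at 0.
Rpl10 (chrX:74270786-74270835, plus strand): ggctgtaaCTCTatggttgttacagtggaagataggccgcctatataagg
Rpl10l (chr12:66284382-66284431, minus strand): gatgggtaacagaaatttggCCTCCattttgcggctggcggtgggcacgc
Rpl39 (chrX:37085203-37085252, minus strand): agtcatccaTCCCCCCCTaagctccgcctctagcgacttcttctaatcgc
Rpl39l (chr16:10170198-10170247, plus strand): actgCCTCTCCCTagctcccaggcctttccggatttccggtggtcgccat

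The promoter table, which holds 250 bases before and 50 bases after each start, had entries for 61 of the 83 genes and for 57 of the 77 abundant ones. A run of at least 8 C or T at the start was present in 33 of the 68 entries of abundant genes, which is 48.5%, against 21% of all 32851 entries. A run of at least 6 was present in 66.2% against 43.9%. CCGGAAG, the core bound by ETS factors such as GABP, was found on either strand in 25 entries (36.8%, against 8.86% of all), and AAGATGGC, a core bound by YY1, in 7 (10.3%, against 2.75%). The GC-box GGGCGG was found in 41 entries (60.3%, against 35.7%) and the E-box CACGTG, bound by MYC, in 8 (11.8%, against 7.15%). CCAAT was found in 22 entries (32.4%, against 37.4%) and TATAAA, on the gene's strand, in 5 (7.35%, against 8.32%). No searched motif contains another, and a match describes the letters of the window only.

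The summed TPM of the 83 genes was 12552, 12639 and 12440 at 0h. It was 14839, 14102 and 14201 at 1h, 8139, 9237 and 12064 at 12h, and 3321, 3753 and 5360 at 48h. The 48h libraries lay below all others, while one 12h library, replicate 3, lay near the 0h level. The means were 12544 ± 99.7, 14381 ± 400.2, 9813 ± 2025 and 4144 ± 1074 TPM (SD, n = 3), so that the 48h sum was 33.0% of the 0h sum (SD 8.56).

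When the 20 most abundant genes of the table were left out of the total, the share of the remaining TPM held by these genes was 13.7, 14.4 and 13.7% at 0h and 11.8, 11.5 and 10.8% at 1h. It was 8.96, 9.30 and 9.48% at 12h and 5.69, 5.72 and 5.66% at 48h. No time point overlapped with another on this measure, and the share was lower at each successive time. The means were 13.9 ± 0.443, 11.4 ± 0.524, 9.24 ± 0.265 and 5.69 ± 0.0292% (SD, n = 3), and the 48h share was 40.9% of the 0h share. The large subunit held 58.5 to 60.3% of the summed TPM in every library.

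**Figure D1:**
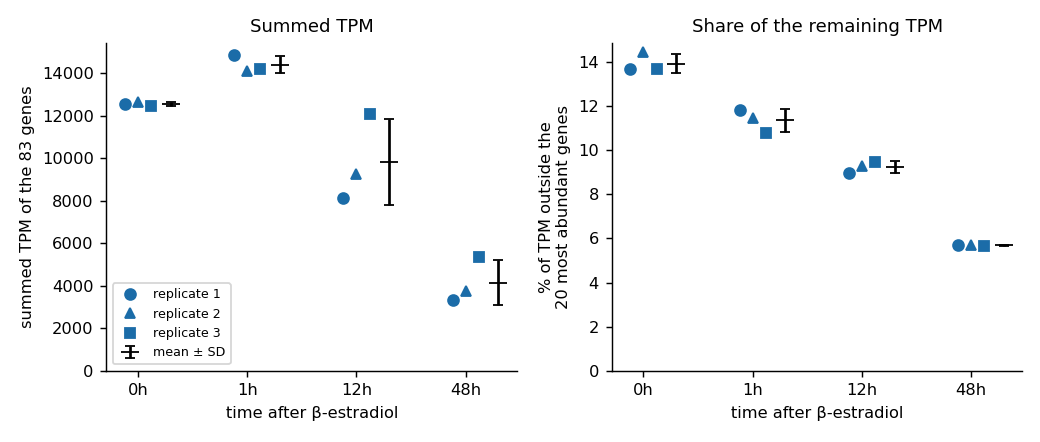
The plot of sums by library shows the ribosomal protein genes in each of the 12 libraries, by hours after induction, as summed TPM and as a percentage of the TPM outside the 20 most abundant genes; points are libraries and bars are means with SD. The 3 libraries of 48h sit between 3321 and 5360 TPM and between 5.66 and 5.72%, below every library of the other time points.

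Nearly all ribosomal protein genes fell by 48h. On scaled TPM, 75 of the 77 were lower and 0 higher at 48h than at 0h, with a median log2 fold change of −1.39 (a fold of 0.382), and 59 of them fell beyond 2-fold. Among all genes tested, 22% were called lower and 24.5% higher, and the median was 0.07. On TPM as deposited, 76 of the 77 were lower, 74 of them beyond 2-fold, with a median of −1.80, where 27.2% of all genes were lower, 15.9% were higher and the median was −0.18. Calls are from limma with a Benjamini-Hochberg adjusted p under 0.05 over all genes tested, and fold changes are on the log2(TPM + 0.1) scale. The 3 contrasts share the 0h libraries.

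The subunits moved alike at 48h. On scaled TPM, 45 of 46 large-subunit genes fell, with a median log2 fold change of −1.40, and 30 of 31 small-subunit genes, with a median of −1.39. Across all 77, the quartiles of the 48h change were −1.67 and −1.02 and the range −3.27 to −0.04. The 48h values lay below all 0h values in 73 of the 77 genes on scaled TPM and in all 77 on TPM as deposited, which held for 23.9 and 30.8% of all genes.

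At 12h, 57 of the 77 genes were lower on scaled TPM (37 of the large and 20 of the small subunit) and 0 were higher, with a median log2 fold change of −0.71 (a fold of 0.609). Among all genes, 14.5% were lower and 16% higher, with a median of 0.07. Only 10 of the 57 fell beyond 2-fold. The count was 35 without 0h replicate 3 and 37 without 12h replicate 1. On TPM as deposited, 5 were lower (Rpl3, Rpl41, Rpl36a, Rps7 and Rpl38, named after their values were seen) and 0 were higher in the limma test, where 7.82% of all genes were lower and 22.3% higher. At an unadjusted p under 0.05, 21 were lower and 0 higher. The 5 became 22 without 48h replicate 3 and 16 without 12h replicate 3, and between 1 and 3 without any one of the 0h libraries, 1h replicate 1, 12h replicate 1 or 12h replicate 2.

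At 1h the direction depended on the scale. The median log2 fold change was 0.21 on TPM as deposited, below the 0.59 of all genes, and −0.45 (a fold of 0.730) on scaled TPM, where all genes had a median of 0.02. On TPM as deposited, limma called 0 members in either direction, with 3 higher and 0 lower at an unadjusted p under 0.05, while 24.1% of all genes were called higher and 1.41% lower. On scaled TPM, 13 members were lower and 0 higher, against 4.92 and 5.42% of all genes. The 13 comprise 6 of the large-subunit and 7 of the small-subunit genes.

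The count of 13 at 1h was sensitive to single libraries. It fell to 2 without 0h replicate 2, to 3 without 1h replicate 1 or 2, to 4 without 0h replicate 3, to 5 without 1h replicate 3, to 6 without 0h replicate 1 and to 8 without 12h replicate 2, and it was 33 without 48h replicate 3. The scaled values of every 1h library lay below all 0h values in 52 of the 77 genes, against 16.2% of all genes, and the fold changes of all 77 were below 0.

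**Figure D2:**
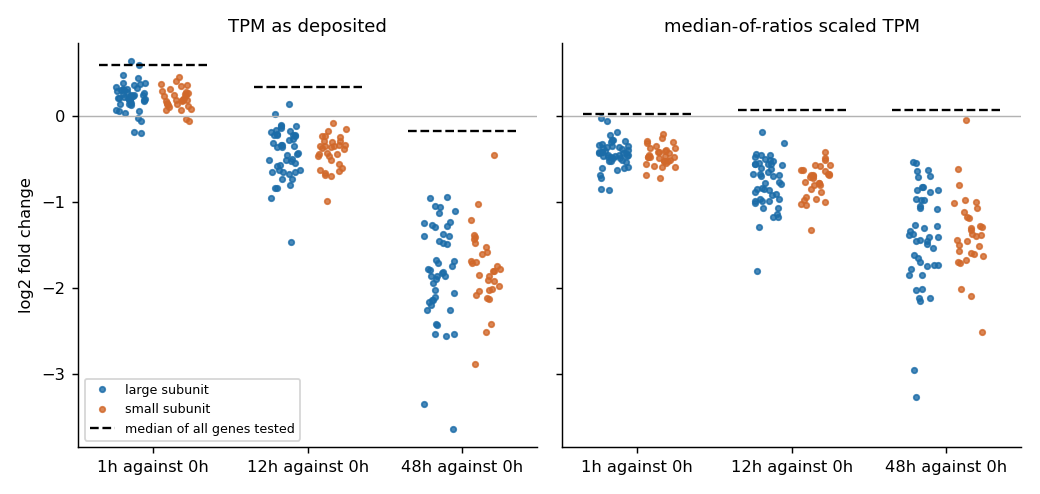
The plot of fold changes gives the log2 fold change against 0h of the 77 abundant ribosomal protein genes at 1h, 12h and 48h, on TPM as deposited and on scaled TPM, 1 point per gene coloured by subunit, with a dashed line at the median of all genes tested. On scaled TPM the members' medians are −0.45, −0.71 and −1.39, each below the line, and on TPM as deposited the 1h median of 0.21 is above 0 but below the line at 0.59.

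On scaled TPM, the mean of 72 of the 77 genes fell at every step from 0h to 48h, 76 had their highest mean at 0h and 76 their lowest at 48h. On TPM as deposited, 71 had their highest mean at 1h and all 77 their lowest at 48h. The order over time was the same for nearly all members within a scale, and the 1h step alone turned with the scale.

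Replicate 3 stood apart at every time in its ribosomal RNA share. It had the lowest share of TPM in the ribosomal RNA locus of its group, at 76.9, 70.3, 72.8 and 75.7% in order of time, against at least 79.3, 73.7, 78.1 and 82.7% in the other libraries. It had the highest TPM of its group in 24, 16, 67 and 64 of the 77 genes at the 4 successive times, and the highest scaled TPM in 54, 54, 49 and 63. Without the 4 libraries numbered 3, TPM as deposited gave 33 lower at 12h in place of 5. The share of all genes called lower in that fit is not given, so the rise cannot be ascribed to these members in particular. The part of the ribosomal RNA share in these differences was not tested.

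The members that fell furthest at 48h on scaled TPM were Rpl12, Rpl3, Rps2, Rpl8 and Rpl14. Rpl12 encodes a protein at the foot of the stalk, where translation factors bind. Its scaled TPM was 13.0, 14.9 and 18.2 at 0h, 17.1, 11.3 and 16.1 at 1h, 2.17, 4.03 and 8.93 at 12h, and 1.78, 0.683 and 2.63 at 48h. The 0h and 1h libraries overlapped and the 12h and 48h libraries lay below both. The log2 fold change was −3.27 at 48h (SE 0.51, limma adjusted p = 0.00028) and −1.81 at 12h (adjusted p = 0.019).

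Rpl3 encodes a protein close to the peptidyl transferase centre. Its scaled TPM was 62.0, 62.2 and 62.4 at 0h, 41.3, 41.9 and 45.6 at 1h, 22.9, 28.3 and 31.9 at 12h, and 8.69, 6.25 and 9.29 at 48h. No time point overlapped with another. The log2 fold change was −2.95 at 48h (SE 0.16, limma adjusted p = 8.9e-08) and −1.18 at 12h (adjusted p = 0.00028).

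Rps2, a protein at the mRNA entry channel, had a scaled TPM of 10.2, 10.4 and 10.9 at 0h and of 2.17, 2.29 and 1.08 at 48h. The log2 fold change was −2.51 (SE 0.41, adjusted p = 0.00040). The changes of Rpl8 and Rpl14 at 48h were −2.15 (SE 0.32, adjusted p = 0.00019) and −2.12 (SE 0.14, adjusted p = 3.2e-07). Rpsa fell nearly as far: its scaled TPM was 399, 432 and 465 at 0h and 96.4, 85.5 and 123 at 48h, a log2 change of −2.10 (SE 0.15, adjusted p = 5.6e-07).

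At the other end of the range, Rps24 had the smallest change at 48h. It encodes a small-subunit protein that is mutated in some cases of Diamond-Blackfan anaemia. Its scaled TPM was 356, 387 and 341 at 0h, 260, 263 and 237 at 1h, 300.1, 283 and 231 at 12h, and 378, 391 and 291 at 48h. The 1h libraries lay below all 0h libraries, and the 48h libraries overlapped with 0h. The 48h log2 fold change was −0.04 (SE 0.15, adjusted p = 0.86, 95% interval −0.38 to 0.29). As deposited, its mean TPM was 337 ± 43.8 at 0h and 245 ± 31.6 at 48h (SD, n = 3), a log2 fold change of −0.46 (limma adjusted p = 0.052), and it was the one member not called lower on that scale.

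Rpl5 was the second gene not called at 48h. Its scaled TPM was 12.6, 15.3 and 11.4 at 0h and 11, 12.1 and 5.35 at 48h, and the groups overlapped. The log2 fold change was −0.53 (SE 0.36, adjusted p = 0.25, 95% interval −1.32 to 0.25). Among the least lowered of the called genes were Rpl21 (−0.55, adjusted p = 0.014) and Rps26 (−0.62, adjusted p = 0.023). Rpl21 had a scaled TPM of 145, 146 and 147 at 0h and 118, 109 and 77.6 at 48h.

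**Figure D3:**
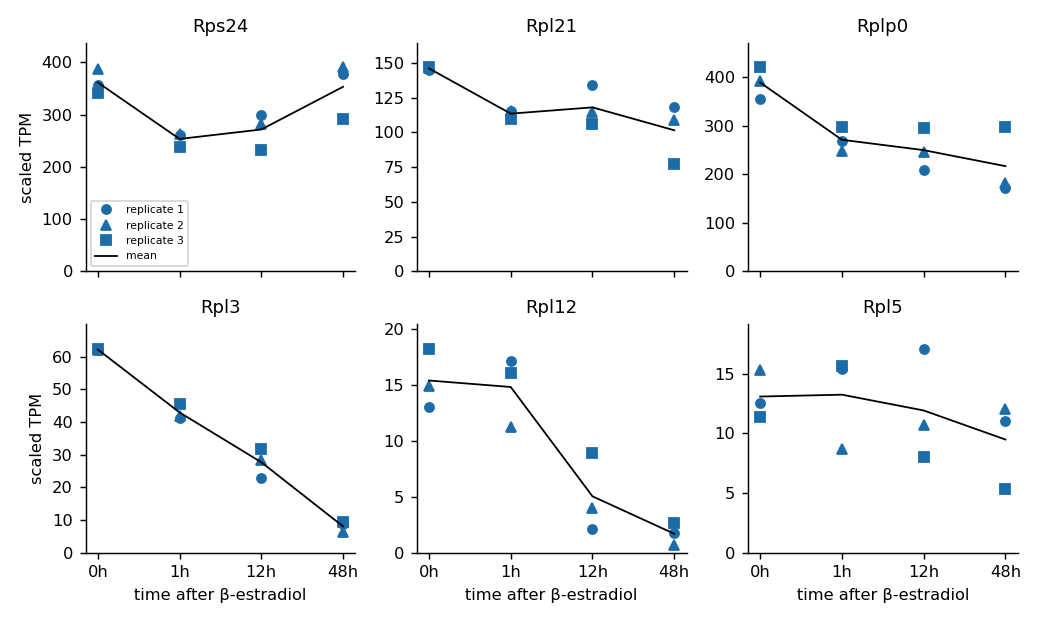
The plot of members by library shows the scaled TPM of named ribosomal protein genes in every library by hours after induction, on linear axes from 0, with a line through the means. Rpl12 and Rpl3 descend to between 0.683 and 2.63 and between 6.25 and 9.29 at 48h, while the 48h libraries of Rps24 lie between 291 and 391, within reach of its 0h libraries at 341 to 387.

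Grouped by role, the stalk genes Rplp0, Rplp1 and Rplp2, whose products recruit the translational GTPases, all fell at 48h. Rplp0 had a scaled TPM of 355, 391 and 421 at 0h and 171, 182 and 297 at 48h, with no overlap, and a log2 fold change of −0.89 (SE 0.21, adjusted p = 0.0050). Rplp1 and Rplp2 had changes of −1.75 (adjusted p = 0.0013) and −1.49 (adjusted p = 0.011). Rpl11, which with Rpl5 joins the 5S ribosomal RNA and can bind MDM2 when free, had a change of −1.34 (SE 0.20, adjusted p = 0.00021), whereas that of Rpl5 was −0.53 and not called. The difference between the genes of this pair was not tested.

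Rps6, the S6 kinase substrate by which mTOR activity is commonly read, had a scaled TPM of 206, 215 and 203 at 0h and 91.9, 78.1 and 72.7 at 48h, a log2 fold change of −1.37 (SE 0.13, adjusted p = 7.3e-06). Rps27a, made as a fusion with ubiquitin, fell by 1.72 on the log2 scale. Rpl10, Rpl39 and Rps4x, X-linked genes each with a paralog listed at 0, fell by 1.27, 1.31 and 1.40, close to the median of all members. The value of Rpl10 changes when its pseudogenes are added, as given below. Their paralogs Rpl10l, Rpl39l and Rps4l stayed listed at 0 at every time. Rps27l, a paralog of Rps27 that p53 can induce, was expressed, unlike Rpl10l, Rpl39l and Rps4l. It had 12.5 ± 1.58 TPM at 0h and 3.96 ± 1.44 at 48h (SD, n = 3), and fell by 1.29 on the log2 scale of scaled TPM (adjusted p = 0.00098). Rpl41, the most abundant member at 0h, went from 427, 534 and 609 to 187, 179 and 239 scaled TPM, a change of −1.37 (SE 0.17, adjusted p = 4.7e-05).

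At 1h, the members with the lowest fold changes on scaled TPM were Rpl13a (−0.86, adjusted p = 0.049), Rpl17 (−0.85, adjusted p = 0.12), Rpl41 (−0.73, adjusted p = 0.019), Rps12 (−0.72, adjusted p = 0.035) and Rps14 (−0.69, adjusted p = 0.15), of which Rpl17 and Rps14 did not pass the test. Those nearest to 0 were Rpl5, Rpl12, Rpl27a, Rps28 and Rpl28, between −0.02 and −0.22. At 12h, the lowest after Rpl12 were Rps18 (−1.33, adjusted p = 0.090), Rpl17 (−1.29, adjusted p = 0.010), Rpl3 and Rpl34 (−1.17, adjusted p = 0.0061). Those nearest to 0 at 12h were Rpl5 (−0.19), Rpl21 (−0.31), Rps24 (−0.42, adjusted p = 0.059), Rpl29 (−0.45, adjusted p = 0.036) and Rpl23a (−0.45, adjusted p = 0.023). Rpl12 was near 0 at 1h and the lowest member at 12h and 48h.

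To ask whether members departed from each other, each library was shifted so that the median log2 TPM of the 77 genes was equal. On this scale limma called 0 members apart from the median member at 1h, with 1 lower at an unadjusted p under 0.05, and 0 at 12h, with 3 lower. At 48h it called 27, of which 18 were above the median member and 9 below, and 19 of the 27 belong to the large subunit. Among all genes, the share called on this scale was 8.83% for 1h, 37.4% for 12h and 70.8% for 48h. The scale sets the ribosomal protein genes and not all genes at 0. Its 0 is the change of the median level of the 77, which is what the median member stands for here. It is not their median change, which was 0.11 at 48h, with 48 genes above 0 and 29 below.

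Among the called genes, Rps24 stood furthest above the median member at 48h, by 1.45 on the log2 scale (SE 0.31, limma adjusted p = 0.0012), followed by Rpl21 (0.95, adjusted p = 0.017) and Rps26 (0.88, adjusted p = 0.035). Rpl28 was above by 0.85. Furthest below among the called genes were Rpl12 (−1.73, adjusted p = 0.0021), Rpl3 (−1.45, adjusted p = 4.1e-05) and Rpl8 (−0.66, adjusted p = 0.0078). Rpsa was below by 0.60, and Rpl5 (0.97, adjusted p = 0.092) and Rps2 (−0.98, adjusted p = 0.060) did not pass the test. Rps2 passed it once its pseudogenes were added, as given below. Of the 27, 16 stayed called when any one of the 12 libraries was left out (11 above and 5 below), and without the libraries numbered 3, 25 stayed called and all 27 kept their sign. Rpl21 and Rps26 lost their call in at least one such fit.

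The genes that stayed called included, above the median member, Rps24, Rpl28, Rpl26, Rpl29, Rps28, Rpl19, Rpl31, Rpl23a, Rplp0 and Rps15, from 1.45 down to 0.48, and, below it, Rpl12, Rpl3, Rpl8, Rpl14 and Rpsa. They were named because of these calls. Both subunits were on both sides. The middle part of the 77 genes widened with time. The quartiles of the difference from the median member were −0.06 and 0.10 at 1h, −0.18 and 0.19 at 12h, and −0.18 and 0.48 at 48h.

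**Figure D4:**
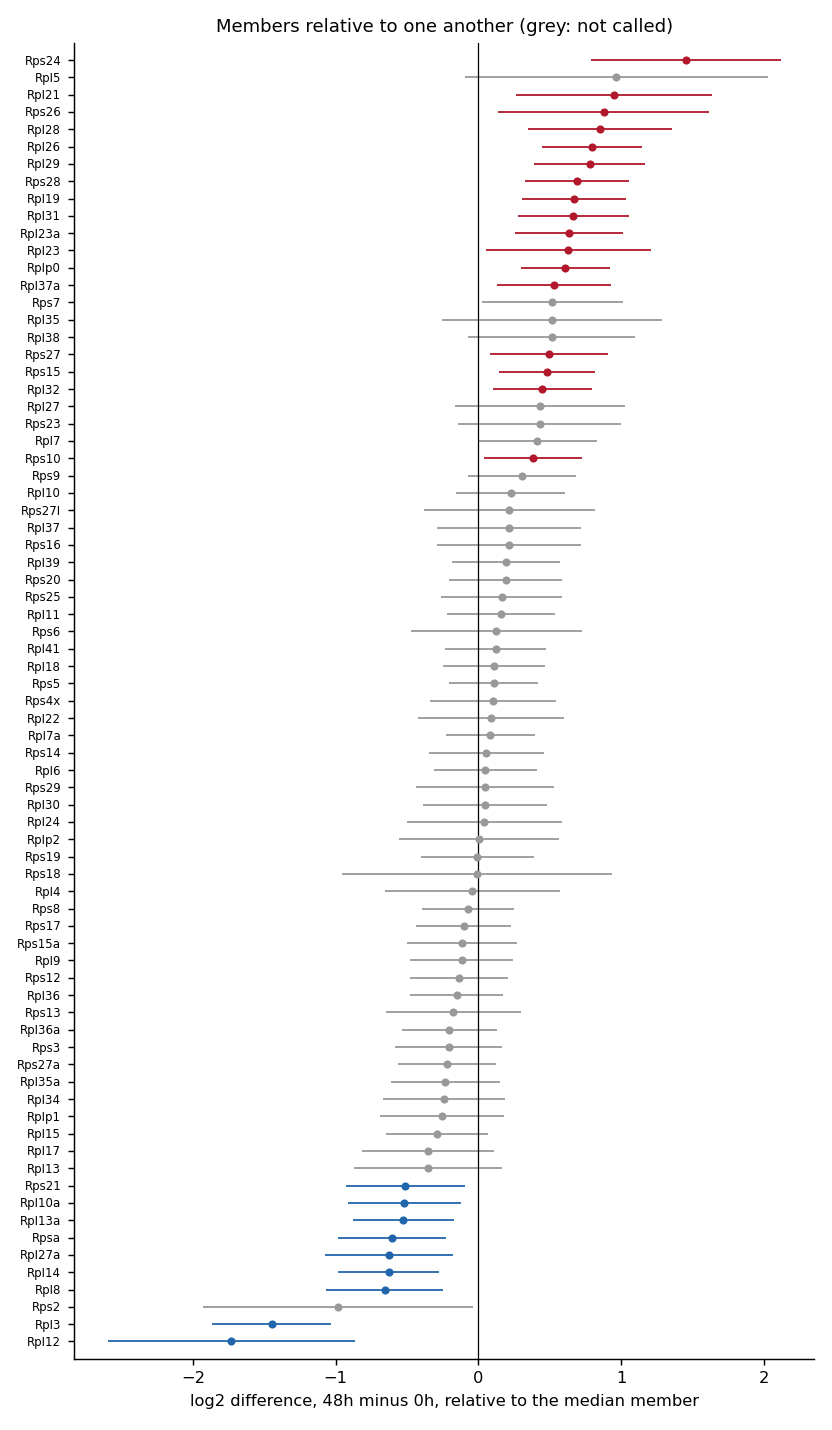
The plot of relative change gives, for 75 of the 77 abundant ribosomal protein genes, the 48h log2 fold change relative to the median member, with 95% intervals and the called genes coloured. Rps24 is at 1.45 and Rpl12 at −1.73, and the quartiles of the 77 genes are −0.18 and 0.48.

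Ribosomal protein genes have many processed pseudogenes whose sequence is close to the parent mRNA, so reads can be divided between them. The table held 300 rows named after a member with the ending -ps, which together had 17.4 to 24.7% of the members' summed TPM. Such rows existed for 59 of the 77 genes. They held over 50% of the joint TPM for 13 genes and under 5% for 36. The level of a gene with a large share in such rows is uncertain.

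Rps2 was the extreme case, with 97.4% of the joint TPM in its pseudogene rows. These rows held 356, 359 and 362 TPM at 0h and 33.7, 38.3 and 51.4 at 48h, and added to Rps2 they gave a log2 fold change of −2.73 on scaled TPM (limma adjusted p = 6.6e-08). For Rpl3 the share was 71.0%, the rows went from 130.1, 129 and 128 TPM to 12.0, 14.4 and 23.6, and the joint change was −2.70. The low place of both genes was thus present in the member and in its pseudogene rows. Relative to the median member, the joint 48h difference was −1.25 for Rps2 (limma adjusted p = 4.3e-06) and −1.22 for Rpl3 (adjusted p = 3.6e-06). Rpl10a, called below the median member at −0.52, was at −0.19 (adjusted p = 0.24) with its pseudogene rows added. Rpl17 differed: 64.2% lay in pseudogene rows, and the joint change was −0.43 (adjusted p = 0.062) in place of −1.85 for the gene alone. For Rpl10, 31.0% lay in such rows, and the joint change was −0.73 (adjusted p = 0.00011) in place of −1.27. Relative to the median member, the joint 48h differences were 1.05 for Rpl17 (adjusted p = 0.0060) and 0.75 for Rpl10 (adjusted p = 0.0012). Rps24 and Rpl12 had 0% in such rows and Rpl21 0.564%. Pseudogenes with other kinds of names were not counted, so the true shares in pseudogenes may be larger.

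The other genes of ribosome production were described from lists of genes with known roles. Of 36 ribosome biogenesis factors tested, 35 fell at 48h on scaled TPM and 1, Heatr1, a factor of the small-subunit processome, rose (0.96, adjusted p = 0.00053). On TPM as deposited, 35 were lower and 0 higher, and Heatr1, at 0.55, was not called. The median was −2.68, and Fbl, the methyltransferase of box C/D snoRNPs, had a change of −4.6, Nop56, its snoRNP partner, of −3.41, and the abundant nucleolar proteins Npm1 and Ncl of −2.96 and −2.74. Fbl was near the floor at 48h, at 0.1, 0.47 and 2.44 TPM, so the size of its change is uncertain. Of 12 RNA polymerase I genes 10 fell, with a median of −1.35, among them Polr1b (−3.26) and Ubtf (−1.29). At 12h, 29 of the 36 biogenesis factors were lower (median −1.44) and at 1h 8 were (median −0.45), where 14.5 and 4.92% of all genes were. The 1h median turned with the scale: on TPM as deposited it was 0.21, and limma called 0 lower and 1 higher (0 and 2 at an unadjusted p under 0.05).

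All 7 genes in the list for translation elongation fell at 48h, with a median of −2.22, among them Eef1a1 (−1.19) and Eef2 (−1.58). The list also counts Eef1e1, which was near the floor, with a mean of 2.07 TPM at 0h and 0.18 at 48h. Of 12 other TOP mRNAs, 11 fell, with a median of −1.38 and Pabpc1 at −1.31, while Tpt1 had a change of 0.32 (adjusted p = 0.068). Of 7 genes of cytosolic ribosomal proteins that the naming rule does not reach, 5 fell. They include Fau (−0.99), Rack1 (−1.60) and Rpl22l1 (−4.24).

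Of 11 regulators of ribosomal protein genes, 4 fell at 48h: Mtor (−2.21), Eif4ebp1 (−2.12), Myc (−1.38) and Larp1 (−1.06). Without scaling, 7 of the 11 were lower. Yy1 (0.19) and Gabpa (−0.27), which bind the cores searched for above, were not called. Of 78 mitochondrial ribosomal protein genes, 59 fell (median −1.31), and of 38 proteasome subunit genes, 21 fell (median −0.67), where 22% of all genes did. At 12h, 35 of the 78 mitochondrial ribosomal protein genes (median −0.83) and 7 of the 38 proteasome genes (median −0.21) were lower on scaled TPM, while 57 of the 77 cytosolic ones were and 14.5% of all genes. Without scaling, 15 of the 78 were lower at 12h, and the proteasome genes had a median of 0.12 with no call in either direction.

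Within a library, the median log2 level of the cytosolic ribosomal protein genes exceeded that of the mitochondrial ones by 5.06 ± 0.139 at 0h and by 4.81 ± 0.331 at 48h (SD, n = 3). It exceeded that of the proteasome genes by 3.83 ± 0.149 at 0h and by 2.95 ± 0.252 at 48h. Apart from the pseudocount, these differences do not depend on how a library is scaled. That to the mitochondrial genes moved by less than the spread of the 48h libraries, and that to the proteasome genes by more.

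Across the 77 members, the 48h log2 fold change on scaled TPM had a Pearson r of −0.07 with GC content, −0.12 with transcript length and 0.33 with mean TPM (Spearman rho 0.25). Mean TPM was taken over all 12 libraries, those of 48h included. A smaller fall by itself raises it, so the r with mean TPM is partly built in. The members share libraries and scaling, so these values describe this set only. A snoRNA gene lies inside 29 of the 77 genes, and their median change at 48h was −1.45, against −1.37 for the 48 without one. The 2 medians were −0.70 and −0.78 at 12h and −0.42 and −0.46 at 1h.

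PCHi-C gave the contacts of the ribosomal protein promoters. Of the 83 genes, 80 had a start on a captured fragment, and 76 of these were abundant. The lists come from merged replicates, 1 list per time point, so the values have no replicate check and no test. Contacts of the 76, counted as pairs of fragments, numbered 1227, 1224, 1018 and 935 at the 4 successive times, which is 0.884, 0.888, 0.774 and 0.649% of each list.

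The median number of contacts per member was 11, 11, 9.5 and 8 at the 4 times. Other genes above 5 TPM at 0h (2605 genes) had medians of 10, 9, 8 and 8, mitochondrial ribosomal protein genes 7.5, 6, 5.5 and 5, and proteasome genes 11, 11, 11 and 10. Between 0h and 48h, 50 members (65.8%) had fewer contacts, 19 (25%) more and 7 the same number. Of the other genes above 5 TPM at 0h, 56.9% had fewer and 32.8% more, and of all genes on a captured fragment 41.3% had fewer and 42.7% more. Of the 1227 contacts at 0h, 643 (52.4%) were listed at 48h as well, and 421 were listed at all 4 times. A captured fragment was shared with another gene for 50 of the 76, so their contacts cannot be assigned to one gene.

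Rps27 had the most contacts at 0h, with 67, 66, 48 and 49 over the 4 times, followed by Rps20 with 58, 54, 31 and 21 and Rps14 with 49, 48, 52 and 45. Rpl37 had 37, 33, 22 and 33, and Rpl41 37, 27, 28 and 14. The starts of Rps14 lie on 2 captured fragments, which also hold 2 other genes. With only the outermost start of each gene counted, Rps14 had 7, 11, 9 and 7 contacts, so its place here rests on its other fragment. On that count the median per member was 9.5, 10.5, 8 and 7. Rps20 and Rpl13a (36, 41, 16 and 8) were among the members with the largest losses. Rpl7 (34, 42, 50 and 48), Rps28 (16, 10, 13 and 28), Rpl30 (20, 21, 26 and 28) and Rpl38 (5, 3, 5 and 13) gained contacts. Each of these 6 genes was lower at 48h in scaled TPM, but so were 75 of the 77 members, so this says nothing about contacts. All 6 also share a captured fragment with another gene.

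Rps24, the least lowered member, went from 23 contacts at 0h to 14 at 48h, and Rpl12 and Rpl3, the most lowered, from 2 to 3 and from 10 to 10. With only the outermost start counted, Rps24 went from 15 to 5, Rpl12 from 2 to 3 and Rpl3 from 1 to 0. Rpsa had 0, 0, 1 and 2. Across the 76 members, the number of contacts at 0h had an r of 0.18 with the 48h log2 fold change and the change in contacts an r of −0.03.

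**Figure D5:**
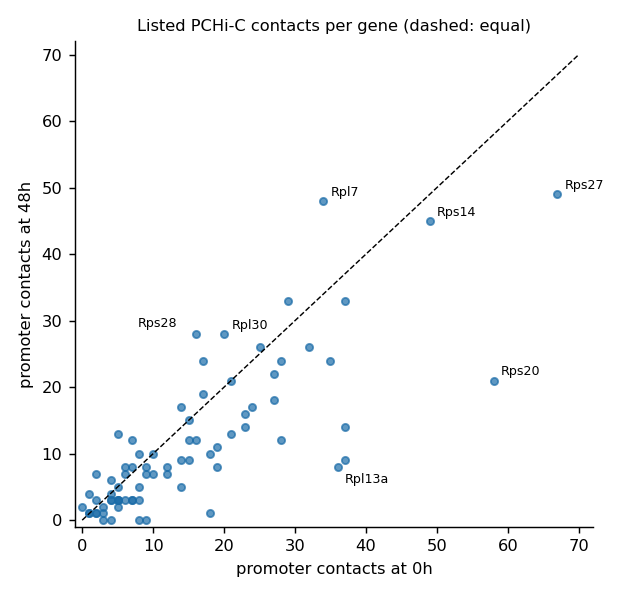
The plot of contacts shows the number of listed PCHi-C contacts of each ribosomal protein promoter at 0h (x axis) and at 48h (y axis), 1 point for each of the 76 abundant genes, with a dashed line of equal numbers. The median goes from 11 to 8, and Rps20 and Rpl13a lie far below the line of equal numbers.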

How the data were processed

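RNA was sequenced from rRNA-depleted total RNA of C10 cells at 0h, 1h, 12h and 48h, with 3 libraries each. Per the labels and the study's methods, the authors trimmed reads with Trim Galore (version 0.6.2), aligned them to mm10 with HISAT2 (version 2.1.0) and deposited RSEM values in TPM per gene with Ensembl 96 annotation. TPM keep no read depth, and the numbers of sequenced reads that the study lists in its supplement were not used here, so no counting intervals are given. For PCHi-C, the authors merged 2 replicates per time point and deposited interaction lists with a CHiCAGO score, the lowest being 5, at 0h. In the lists of the other times the deposited value is a whole number whose unit is not named, and only the presence of a contact was used. A gene's contacts were those of any captured fragment that holds one of its annotated starts. As an alternative, only the outermost annotated start of a gene was used.

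TPM were tested with limma 3.58.1 (R 4.3.3) on log2(TPM + 0.1), in 1 model of the 4 time points with a mean-variance trend, over all genes whose mean TPM reached 0.1. Benjamini-Hochberg adjustment ran over all of them, with a threshold of 0.05. Median-of-ratios factors used the 11246 genes above 0 in every library. The fit was first tested on simulated data. Summaries were computed with Python 3.11.15, numpy 2.4.6, pandas 2.3.3 and scipy 1.17.1. Sequences are from RefSeq on GRCm38.p6, the patch release of mm10, and gene positions from GENCODE M21.

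The genes and lists were chosen with earlier results of these data known. Members named in the text were the 5 most abundant, the 5 highest and 5 lowest changes per contrast on scaled TPM, the 3 called genes furthest above and below the median member, all members under 1 TPM, the stalk, 5S, paralog, ubiquitin-fusion and S6 members, and for contacts the 5 with most at 0h and the 3 largest gains and losses; others named serve as examples. Alternatives were other scalings, filters and pseudocounts, a fit without the trend, a replicate block, pairs of time points fitted alone, each library left out in turn, a score of at least 10 for contacts, and, chosen after the data were seen, all libraries numbered 3 left out, pseudogene rows added to their member, and the sums with each library left out. Only pseudogenes named with -ps were counted as such. Some genes that this rule would name are not reported here.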

Additional observations from a re-analysis of the deposited data

How the results depend on the processing

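Counts of members under an alternative fit are given without the share of all genes called in that fit. At 48h the counts of lower members changed least: leaving out one library gave 69 to 75 on scaled TPM and 75 to 77 on TPM as deposited, and no alternative moved either count by over 1.5 times. The 27 members apart from the median member at 48h ranged from 20 to 35 with one library left out. With one library left out, the 48h sum was 28.2 to 36.3% of that at 0h and the share 40.5 to 41.7%, and the share was 38.9% without the 5 most abundant members.

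The count of 5 lower at 12h on TPM as deposited became 2 with no filter or no trend, 8 with a mean TPM of at least 1 or only the 6 libraries compared, 39 after quantile normalization, 49 when rescaled without the 20 most abundant genes, 33 without the libraries numbered 3, 3 with pseudogene rows added and 0 beyond a log2 fold change of 1 (1 to 22 with one library left out). On scaled TPM, the 57 at 12h became 10 beyond that change (35 to 71). The 13 at 1h became 5 with no filter, 2 with no trend, 26 with only 6 libraries and 0 beyond that change (2 to 33). On TPM as deposited at 1h, 11 were higher with only 6 libraries, 2 without the libraries numbered 3 and 0 to 3 with one left out, and 3 were lower when rescaled. Members apart at 12h numbered 1 with a pseudocount of 1, with centring on the sum or with pseudogene rows added, 5 without the libraries numbered 3 and 0 to 2 with one left out. A score of at least 10 left a mean of 3.08 contacts per member at 0h, in place of 15.3.

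Same-numbered libraries did not deviate together in every pair (correlations of −0.0123 to 0.257), so the numbers were not taken as a pairing. The libraries numbered 3 correlated with each other by 0.0698 to 0.257, in 5 of 6 pairs over 0.1, and with the others by −0.181 to −0.0059. A replicate block gave 12 lower at 12h on TPM as deposited, 28 at 1h on scaled TPM and 5 apart at 12h.

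Among named members, changes near 0 turned in sign. With one library left out, Rpl5 at 1h ranged from −0.16 to 0.25 (0.096 without 0h replicate 2), Rpl12 at 1h from −0.18 to 0.12 (0.064 without 0h replicate 3), Rpl5 at 12h from −0.49 to 0.057, and Rps24 at 48h from −0.12 to 0.090 (0.0060 without 0h replicate 2). Rps24 at 48h was 0.049 without the libraries numbered 3. Of the other values of named members under an alternative, 1047 kept their direction and side of the threshold, 64 lost their call and 14 gained one. The causes were not tested.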
